A study of Rattus norvegicus with 16 samples.

Results

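The earliest step of the time course was described here: the CA1 field of rat hippocampal slice cultures at 30 min, set against CA1 at T0. The members are the arrays whose titles name CA1 with T30m or T0, 2 of each, which makes 4 of the 16 arrays of the series. The series followed the CA1 and CA3 fields under oxidative stress at T0, 30 min, 3 h and 12 h, with 2 arrays for each field and time that the labels call biological replicates. Each array held total RNA of organotypic cultures, slices of hippocampus kept alive on a support with neurons, glia and much of their local wiring. The labels read here name no agent or dose, no age or strain of the rats and no number of animals behind a sample, and they leave unsaid whether T0 was taken before or at the end of an exposure. The p-values therefore measure the spread between these samples, which may be technical.

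CA1 pyramidal neurons are known as the hippocampal neurons most easily lost after ischemia and oxidative injury. Cells answer a stress or a burst of activity first with immediate early genes, whose transcription needs no new protein. Many of these encode transcription factors of the AP-1, Egr, Nr4a and Klf families. A second group encodes feedback proteins that end the signal again, by removing phosphate from MAP kinases, by speeding the decay of short-lived mRNAs or by shortening G protein signals. Dividing cells carry a separate program, in which E2F factors drive genes of DNA replication and a later set of promoters, bound by the DREAM and B-Myb complexes, drives genes of mitosis. Pyramidal neurons do not divide, so in a slice culture such transcripts come from glia, progenitors and other proliferating cells.

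All values are RMA expression values on the log2 scale, 1 for each probe set and array, and 1 unit is a doubling of signal. In the T30m arrays the spike-in signal, from control transcripts that the manufacturer's protocols add to the RNA, was 6.03 in replicate 1 and 4.37 in replicate 2, against 6.46 and 5.96 in the T0 arrays. The hybridization control BioB was 9.07 and 5.76 at T30m and 7.56 and 7.14 at T0, so T30m replicate 2 was low in both controls. The 3' minus 5' signal of GAPDH, which grows when RNA is shortened, was 2.18 and 2.77 at T30m, against 2.08 and 3.08 at T0. That of beta-actin was lower in both T30m arrays, 4.26 and 4.17 against 4.54 and 5.14 at T0. Over all probe sets the T30m arrays correlated with each other at 0.962 and the T0 arrays at 0.969. Between T30m and T0 arrays the correlation ran from 0.945 to 0.972, highest for the replicate 1 arrays of both times. Replicates were thus not always closer to each other than to the other time. Of 10411 genes, 7.52% differed by at least 1 log2 unit between the T30m replicates and 5.16% between the T0 replicates.

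The markers of the field did not set the CA1 arrays apart at T0. Of 9 measured CA1 pyramidal markers, 5 lay higher in both CA1 arrays than in both CA3 arrays at T30m and 0 lay lower, whereas at T0 2 lay higher and 5 lay lower. Mpped1, a marker of CA1 pyramidal cells, read 5.64 and 9.26 in CA1 at T30m and 4.35 and 4.50 in CA1 at T0, beside 5.34 and 5.6 in CA3 at T0. Of 11 general markers of excitatory neurons, 7 were lower in both CA1 arrays than in both CA3 arrays at T0, and 1 at T30m. No share over all genes was computed for these counts between the fields, so they are not set against a background. In such bulk samples fewer cells of a type and less RNA per cell cannot be told apart.

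Across genes, few single changes stood clear of the spread between replicates. With limma fitted to all 16 arrays and Benjamini-Hochberg adjustment over 15866 probe sets, 2 probe sets passed an adjusted p under 0.05, which is 0.0126% of those tested. They stand for 2 of 10411 genes (0.0192%), 1 higher (0.00961%) and 1 lower (0.00961%). Without adjustment 787 probe sets had a p under 0.05, 338 higher and 449 lower; by gene that is 239 higher (2.3%) and 362 lower (3.48%). A difference of at least 1 log2 unit was found for 318 genes upward (3.05%) and 151 downward (1.45%). A further 11 probe sets shared an adjusted p of 0.0646. A looser description counts the genes with both T30m arrays above both T0 arrays, 1676 or 16.1%, and those with both below, 2285 or 21.9%. With 2 arrays against 2, an exact two-sided permutation test of a single gene cannot go below p = 0.333, so these counts are read only against those background shares.

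Zfp36 encodes tristetraprolin, which binds AU-rich elements and hastens the decay of mRNAs of cytokines and immediate early genes. It read 7.27 and 7.46 in the T30m arrays, against 5.33 in both T0 arrays. The T30m replicates lay close together and well above T0, and Zfp36 rose 4.1-fold, by 2.03 ± 0.23 on the log2 scale (moderated SE, limma adjusted p = 0.0284). Pimreg encodes a protein that binds the clathrin assembly protein PICALM and is made in mitosis. It read 4.79 and 4.50 at T30m, against 7.46 and 7.28 at T0. Pimreg fell by 2.73 ± 0.30 on the log2 scale, 6.63-fold (limma adjusted p = 0.0284). Neither call held without all 4 arrays and the spread estimated over the series: without any 1 of the 4, the adjusted p of either gene lay between 0.17 and 0.494, and in a fit of the 4 arrays alone it was 0.265 for Zfp36 and 0.206 for Pimreg.

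**Figure D1:**
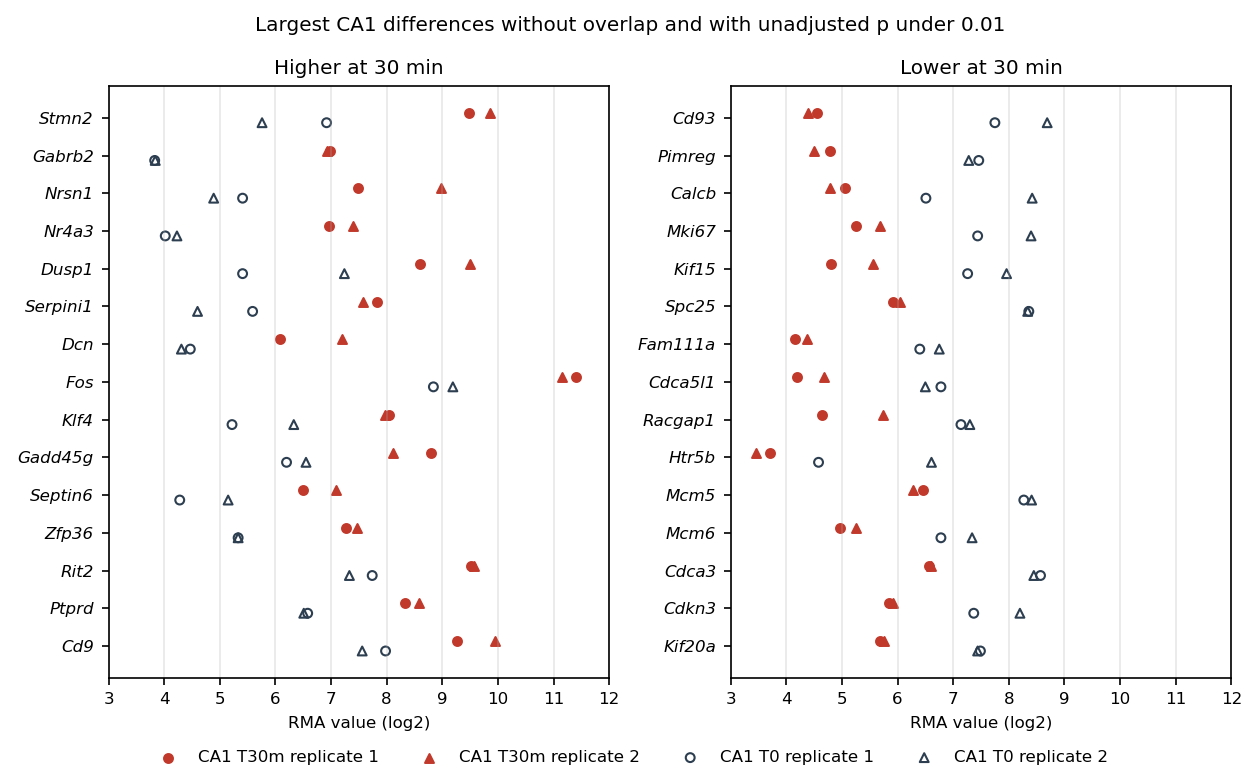
RMA values (log2, horizontal) of the 15 genes with the largest difference in each direction among those with no overlap and an unadjusted p under 0.01, CA1 T30m replicates as filled red symbols and CA1 T0 replicates as open dark symbols. The groups do not overlap for any gene shown, because that was part of the rule that chose them; Rgs4 (4.14) and Akr1b8 (-3.26) differed by more than most genes shown but missed the limit on p. The spread between replicates differs from gene to gene, from the tight pairs of Zfp36 to Htr5b, whose T0 arrays read 4.58 and 6.61.

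Immediate early transcription factors were mostly higher at 30 min. Of 32 measured, 25 lay above 0 and 7 below, where 44.1% of all genes lay above and 55.9% below. The median difference was 0.53 (0.32 without T0 replicate 1), against -0.04 over all genes, and 0 passed the adjusted threshold. In 14 (43.8%, against 16.1% of all genes) both T30m arrays were above both T0 arrays and in 2 (6.25%, against 21.9%) both were below. Fos, the AP-1 partner of the Jun proteins, read 11.41 and 11.15 at T30m, against 8.84 and 9.19 at T0, a difference of 2.26 ± 0.59. Klf4, a zinc finger factor of differentiation and growth arrest, read 8.05 and 7.97 at T30m and 5.22 and 6.33 at T0 (difference 2.23 ± 0.59). These T30m pairs were narrower than the gap to T0, yet limma's adjusted p was 0.538 for Fos and 0.546 for Klf4. The orphan nuclear receptor Nr4a3 had the largest difference of the list, 3.06 ± 0.93, from values of 6.97 and 7.40 at T30m and 4.02 and 4.23 at T0. Its relative Nr4a1 read 7.99 and 9.23 at T30m, against 6.82 and 6.79 at T0 (difference 1.80 ± 0.60).

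Other members stood apart by less or not at all. Junb, an AP-1 subunit, read 9.30 and 9.0 at T30m and 7.97 and 8.0 at T0 (1.17 ± 0.32). Bhlhe40, a repressor of the circadian clock, read 5.30 and 6.04 at T30m and 4.31 and 4.56 at T0 (1.23 ± 0.37). Jun itself differed by less, 10.99 and 10.32 at T30m against 9.79 and 9.95 at T0 (0.79 ± 0.29). Atf3, a stress-induced ATF/CREB factor, was higher in both T30m arrays, but unevenly: 9.97 and 7.86, against 6.81 and 6.97 at T0. Egr1 and Egr2, zinc finger factors of activity, could not be placed, because their T0 arrays lay far apart. Egr1 read 9.43 and 10.02 at T30m and 7.10 and 10 at T0, and Egr2 read 8.0 and 8.46 at T30m and 5.56 and 8.45 at T0. Without T0 replicate 1 their differences were -0.27 and -0.22. Id1, an inhibitor of bHLH factors, was on the other side, with 9.23 and 8.36 at T30m against 9.66 and 9.96 at T0 (-1.02 ± 0.49).

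Feedback regulators were also mostly higher. Of 26 measured, 19 lay above 0 and 7 below, where 44.1% of all genes lay above, with a median of 0.34 that ran from 0.2 to 0.63 when 1 array was left out. In 11 (42.3%, against 16.1% of all genes) both T30m arrays were above both T0 arrays, in 0 (against 21.9%) both were below, and Zfp36 was the 1 that passed. Dusp1, a phosphatase of MAP kinases, read 8.60 and 9.49 at T30m and 5.41 and 7.24 at T0 (2.72 ± 0.82). The 3 Gadd45 genes, whose small proteins act in stress kinase signalling and growth arrest, were all higher in both T30m arrays. Gadd45g read 8.80 and 8.12 at T30m, against 6.20 and 6.55 at T0 (2.08 ± 0.55). Gadd45b read 8.27 and 7.31 at T30m, against 5.86 and 6.14 at T0 (1.79 ± 0.41, limma adjusted p = 0.39). Gadd45a read 6.41 and 7.33 at T30m, against 4.84 and 5.06 at T0 (1.92 ± 0.89). Rgs4, which shortens G protein signals and is abundant in pyramidal neurons, had the largest difference of all genes: 7.51 and 9.65 at T30m and 4.44 in both T0 arrays (4.14 ± 1.33, limma adjusted p = 0.709). Rgs4 is also counted among the excitatory neuron markers described below, so these lists share their largest difference. Nfkbia, the inhibitor of NF-kappaB that NF-kappaB itself induces, read 9.46 and 7.65 at T30m and 7.21 in both T0 arrays.

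The effectors that neuronal activity induces were less uniform. Of 25 measured, 14 lay above 0 and 11 below, with a median of 0.15 (-0.05 without T30m replicate 2), and both T30m arrays were above both T0 arrays in 8 (32%, against 16.1% of all genes) and below in 2 (8%, against 21.9%). Bdnf, a neurotrophin, read 5.78 and 7.14 at T30m, against 3.95 and 3.80 at T0 (2.59 ± 1.32). Nrn1, a membrane-anchored protein that promotes neurite growth, read 6.79 and 8.65 at T30m and 5.36 and 5.37 at T0 (2.36 ± 1.06). Arc and Homer1, of the postsynaptic density, had differences of 0.98 ± 0.74 and 1.44 ± 1.55 (0.68, -0.08, 0.67 and 1.08 for further probe sets of Homer1). For each of these 4 genes replicate 2 was the higher of the T30m arrays. Npy, the neuropeptide of interneurons, lay lower, with 9.02 and 10.64 at T30m against 10.99 and 11.87 at T0. None of them passed the test.

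Promoter windows are shown for the gene that rose and for Dusp1, the phosphatase of its feedback group. Each holds 250 bases before and 50 after the RefSeq start on assembly GRCr8, on the strand of the gene. Capitals mark a match to the CArG box pattern (the element of serum response factor) in Zfp36, chr1:92799059-92799358 on the minus strand. In Dusp1, chr10:17184603-17184902 on the plus strand, they mark a CRE (TGACGTCA, the element of CREB).
Zfp36: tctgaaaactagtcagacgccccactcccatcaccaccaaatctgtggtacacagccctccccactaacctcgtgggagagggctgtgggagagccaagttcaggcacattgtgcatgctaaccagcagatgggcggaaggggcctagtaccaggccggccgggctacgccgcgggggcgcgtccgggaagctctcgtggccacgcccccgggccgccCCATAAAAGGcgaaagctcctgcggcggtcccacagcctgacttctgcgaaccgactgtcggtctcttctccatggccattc
Dusp1: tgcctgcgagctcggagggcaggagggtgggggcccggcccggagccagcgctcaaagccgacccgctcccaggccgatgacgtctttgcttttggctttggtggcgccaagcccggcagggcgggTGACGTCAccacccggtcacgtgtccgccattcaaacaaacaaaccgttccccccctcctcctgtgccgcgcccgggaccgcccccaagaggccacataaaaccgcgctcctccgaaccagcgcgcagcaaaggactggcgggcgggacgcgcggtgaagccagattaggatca
The CArG match of Zfp36 lies at -32 to -23 and the CRE of Dusp1 at -124 to -117 from the start. Whether the match in Zfp36, so close to the start, acts as a CArG box or as another element was not tested. On both strands, a CArG box occurs in 4 of 23 immediate early factors with a window (17.4%), in 2 of 22 feedback regulators (9.09%) and in 1.41% of 8630 array genes with a window. A CRE occurs in 2 of 23 (8.7%) and 2 of 22 (9.09%), against 2.86%. Of the 14 immediate early factors with both T30m arrays above both T0 arrays, 9 had a window. None of these 9 held a CArG box or a full CRE. Fos, Nr4a3 and Atf3 had no window, so they were not searched. The shorter sequence TGACG, a part of the CRE, occurs in 4 of the 9 (44.4%), against 30.1% of the array genes. In the whole list of factors it occurs in 12 of 23 (52.2%). A match is a run of letters, not a bound site.

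Genes of mitosis were lower at 30 min nearly throughout. Of 33 measured, 32 lay below 0, 31 (93.9%, against 21.9% of all genes) had both T30m arrays below both T0 arrays, and the median difference was -1.21. The 1 gene above was Ckap5, a microtubule polymerase that non-dividing cells also use, at 9.22 and 9.20 against 9.02 and 9.16. Pimreg was the 1 that passed. Adjusted p was 0.0646 (limma) for Spc25, Mki67, Kif15 and Kif20a. Spc25, a subunit of the NDC80 complex that ties kinetochores to spindle fibres, read 5.92 and 6.04 at T30m and 8.36 and 8.34 at T0 (-2.37 ± 0.32). Mki67, the Ki-67 protein that coats mitotic chromosomes and marks cycling cells, read 5.26 and 5.69 at T30m and 7.44 and 8.4 at T0 (-2.44 ± 0.36).

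Motors and enzymes of the same phase were lower in both T30m arrays too. Kif15, a spindle kinesin, read 4.80 and 5.56 at T30m, against 7.26 and 7.96 at T0 (-2.43 ± 0.37). Kif20a, a kinesin of cytokinesis, read 5.68 and 5.76 at T30m and 7.49 and 7.44 at T0 (-1.75 ± 0.26). Top2a, which untangles sister DNA, read 6.84 and 7.04 at T30m and 8.46 and 8.89 at T0 (-1.74 ± 0.31). The mitotic kinases Cdk1 and Aurka differed by -1.63 ± 0.61 and -1.71 ± 0.33. Racgap1 of the central spindle differed by -2.04 ± 0.41, and Cdkn3, a phosphatase of cyclin-dependent kinases, by -1.91 ± 0.55. For all of these the arrays did not overlap.

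Genes of DNA replication were lower as well, by a smaller median. Of 34 measured, 32 lay below 0, 26 (76.5%, against 21.9% of all genes) had both T30m arrays below both T0 arrays, 0 had both above, and the median was -0.77. None passed the threshold. The MCM genes encode the ring helicase that opens the origins. Mcm3 read 5.36 and 5.6 at T30m and 6.85 and 6.84 at T0 (-1.37 ± 0.21, limma adjusted p = 0.0646). Mcm5 read 6.46 and 6.28 at T30m and 8.27 and 8.41 at T0 (-1.97 ± 0.49), and Mcm6 read 4.97 and 5.25 against 6.78 and 7.34 (-1.95 ± 0.53). Mcm2 and Mcm7 differed by -1.47 ± 0.71 and -1.39 ± 0.60. Rrm1, the large subunit of ribonucleotide reductase, read 7.37 and 7.69 at T30m and 8.81 and 9.18 at T0 (-1.47 ± 0.44). Pcna, the sliding clamp that repair also uses, differed by -0.62 ± 0.58, with 9.63 and 9.56 at T30m against 10.63 and 9.80 at T0.

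Other genes of proliferating cells were among the named ones. Nes, the intermediate filament nestin of progenitors and reactive glia, read 7.11 and 7.23 at T30m and 8.71 and 8.70 at T0 (-1.53 ± 0.23, limma adjusted p = 0.0646). Fam111a, in human cells a protease that acts at replication forks, read 4.16 and 4.38 at T30m and 6.4 and 6.75 at T0 (-2.31 ± 0.34). Over the 17 progenitor genes the median was -0.14 (0.03 without T30m replicate 2), with 7 above and 10 below 0, and Dcx, the doublecortin of young neurons, lay higher by 1.53 ± 0.52. Of 22 microglia markers 20 lay below 0, with a median of -0.32 (-0.7 without T30m replicate 1 and -0.18 without T0 replicate 2), but both T30m arrays were below both T0 arrays in 6 (27.3%), near the background share of 21.9%. The oligodendrocyte precursor markers, 5 measured, had no gene without overlap and a median of -0.20, which was -0.72 without T0 replicate 1 and 0.31 without T0 replicate 2. The part of the glial and progenitor cells in the lower cell cycle signals was not tested.

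Windows of 4 of these genes show the elements of cell cycle promoters, on GRCr8 as above. Capitals mark the cell cycle homology region, CHR (TTTGAA), and CCAAT boxes (CCAAT) in Mki67, Spc25 and Top2a, and E2F sites (TTTCCCGC or TTTGGCGC) with CCAAT boxes in Mcm5; each was searched on both strands. The Mcm5 window also holds a CRE and that of Dusp1 a CHR, left in lower case.
Mki67: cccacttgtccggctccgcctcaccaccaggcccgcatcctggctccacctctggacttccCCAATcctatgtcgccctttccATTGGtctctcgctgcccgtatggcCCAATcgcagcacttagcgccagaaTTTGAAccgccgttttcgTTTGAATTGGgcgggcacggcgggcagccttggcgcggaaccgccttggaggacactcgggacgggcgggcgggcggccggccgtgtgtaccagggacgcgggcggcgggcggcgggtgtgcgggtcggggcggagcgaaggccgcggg
Spc25: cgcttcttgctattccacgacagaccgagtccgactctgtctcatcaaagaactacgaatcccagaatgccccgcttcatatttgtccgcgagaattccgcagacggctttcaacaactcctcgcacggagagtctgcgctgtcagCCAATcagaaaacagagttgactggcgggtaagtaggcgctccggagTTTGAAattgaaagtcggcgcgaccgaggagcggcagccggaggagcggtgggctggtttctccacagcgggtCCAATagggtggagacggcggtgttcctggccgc
Top2a: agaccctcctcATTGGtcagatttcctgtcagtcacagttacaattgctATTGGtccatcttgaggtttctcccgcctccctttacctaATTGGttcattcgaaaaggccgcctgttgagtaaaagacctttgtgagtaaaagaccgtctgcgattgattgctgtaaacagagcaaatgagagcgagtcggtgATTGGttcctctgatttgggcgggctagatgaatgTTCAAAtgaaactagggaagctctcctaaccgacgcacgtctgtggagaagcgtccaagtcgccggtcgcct
Mcm5: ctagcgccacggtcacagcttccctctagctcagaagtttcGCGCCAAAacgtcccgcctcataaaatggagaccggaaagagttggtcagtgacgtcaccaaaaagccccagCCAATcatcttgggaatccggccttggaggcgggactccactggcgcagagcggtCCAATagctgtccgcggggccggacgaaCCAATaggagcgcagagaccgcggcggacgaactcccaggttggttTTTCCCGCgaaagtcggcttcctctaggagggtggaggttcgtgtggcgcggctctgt
They lie at chr1:199952544-199952843 (minus strand, Mki67), chr3:74396669-74396968 (minus, Spc25), chr10:84473044-84473343 (minus, Top2a) and chr19:13488563-13488862 (plus, Mcm5). In Mki67 a CHR at -99 to -94 shares its last base with a CCAAT box at -94 to -90. A CHR occurs in 21 of 29 mitosis genes with a window (72.4%), in 2 of 31 replication genes (6.45%) and in 11.7% of the 8630 array genes. A CCAAT box occurs in 22 of 29 mitosis genes (75.9%) and 20 of 31 replication genes (64.5%), against 37.6%. The E2F sites occur in 6 of 31 replication genes each (19.4%) and in 0 of 29 mitosis genes, against 1.76% for TTTCCCGC and 0.8% for TTTGGCGC. These shares describe the lists and say nothing of what bound there. The lists were drawn up by function, but with earlier results of these data known.

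**Figure D2:**
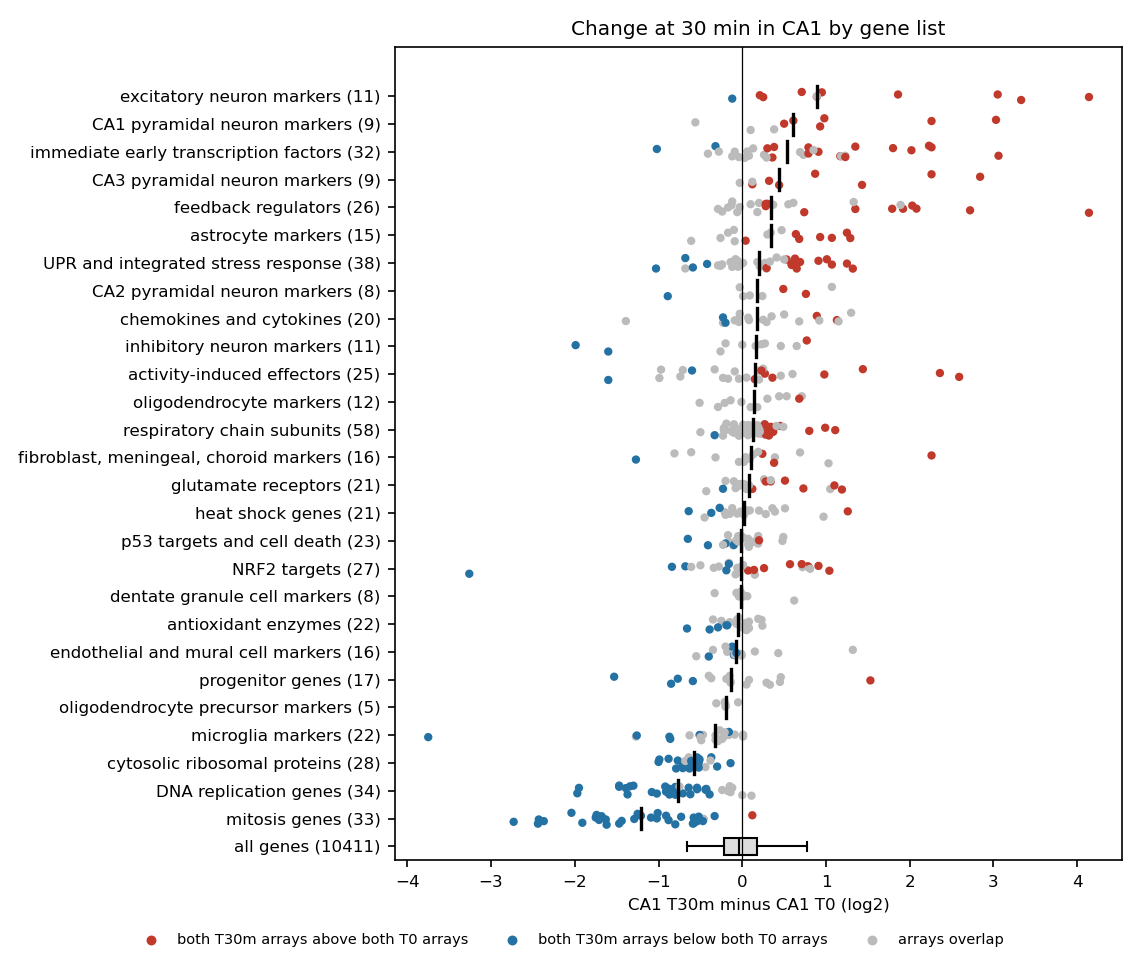
Difference CA1 T30m minus CA1 T0 (log2) for each measured member of 27 gene lists, coloured by whether the arrays of the groups overlap, with a black bar at each list's median. The box at the bottom holds all 10411 genes (quartiles, with whiskers from the 5th to the 95th percentile). Mitosis genes (median -1.21), DNA replication genes (-0.77) and cytosolic ribosomal proteins (-0.58) lie furthest to the left, and excitatory neuron markers (0.89) furthest to the right.

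Transcripts of cytosolic ribosomal proteins, the parts of the translation machine, were slightly lower. Of 28 measured, 28 lay below 0, 24 (85.7%, against 21.9% of all genes) had both T30m arrays below both T0 arrays, and the median was -0.58. Rpl35 read 11.33 and 11.22 at T30m, against 12.10 and 12.21 at T0 (-0.88 ± 0.30), and 0 passed. Subunits of the respiratory chain, which makes most ATP of neurons, had a median of 0.13 with 42 of 58 above 0. That median was 0.31 without T0 replicate 1 and -0.04 without T0 replicate 2. Both T30m arrays were above both T0 arrays in 13 (22.4%, against 16.1% of all genes) and below in 1 (1.72%, against 21.9%).

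The lists of the antioxidant defence were centred near 0. Of 27 targets of NRF2, the factor that oxidants release from KEAP1, 13 lay above 0 and 14 below, with a median of -0.01. Both T30m arrays were above both T0 arrays in 9 (33.3%, against 16.1% of all genes) and below in 5 (18.5%, against 21.9%). Gsta1, a glutathione transferase, read 9.64 and 9.16 at T30m and 8.34 and 8.38 at T0 (1.04 ± 0.55), and Sqstm1, the autophagy receptor p62, read 9.94 and 10.65 against 9.60 and 9.17 (0.91 ± 0.37). Akr1b8, an aldo-keto reductase, lay on the other side, with 4.32 and 4.92 at T30m and 6.67 and 9.10 at T0 (-3.26 ± 1.30). Of 22 antioxidant enzymes 0 (against 16.1% of all genes) had both T30m arrays above both T0 arrays. In 5 (22.7%, near the 21.9% of all genes) both were below, and the median was -0.05. Heat shock genes had a median of 0.02 over 21, and targets of p53 with genes of cell death -0.01 over 23.

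A few genes of the integrated stress response, the program in which ATF4 is translated when general translation slows, were higher. Of 38 genes of this and the unfolded protein response, 21 lay above 0, and both T30m arrays were above both T0 arrays in 13 (34.2%, against 16.1% of all genes) and below in 4 (10.5%, against 21.9%). Chac1, which degrades glutathione, read 8.42 and 8.33 at T30m and 7.25 and 7.0 at T0 (1.25 ± 0.28, limma adjusted p = 0.371). Slc3a2, the heavy chain of amino acid exchangers such as the cystine carrier, read 9.66 and 10.02 at T30m and 8.58 and 8.47 at T0 (1.32 ± 0.42). Ddit3, the factor CHOP, read 8.29 and 7.99 against 7.10 and 7.04 (1.07 ± 0.52). The list's median was 0.20 (0.13 without T30m replicate 2) and 0 genes passed.

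Markers of excitatory neurons were mostly higher. Of 11, 10 lay above 0, 9 (81.8%) with both T30m arrays above both T0 arrays, against 16.1% of all genes, at a median of 0.89. The 1 below was Tbr1 (-0.12), with both T30m arrays below T0. Further probe sets of Camk2a differed by -0.14 and -0.2 and that of Slc17a7 by 0.06, while those of Rtn4r differed by 0.46 and 0.55. Stmn2, a tubulin-binding protein of growing axons, read 9.48 and 9.86 at T30m and 6.92 and 5.76 at T0 (3.33 ± 0.82). Snap25, of the synaptic vesicle fusion complex, read 9.29 and 9.49 at T30m and 7.40 and 5.28 at T0 (3.05 ± 1.34). Further neuronal genes among the 15 named upward, the largest with no overlap and an unadjusted p under 0.01, were Gabrb2, a GABA-A receptor subunit (3.11 ± 0.84), Nrsn1, a neuronal vesicle protein (3.09 ± 0.92), Serpini1, the protease inhibitor neuroserpin (2.60 ± 0.67), Rit2, a neuronal small GTPase (2.01 ± 0.51), and Ptprd, a receptor phosphatase of synapses (1.91 ± 0.61). Limma's adjusted p for these genes was at least 0.483.

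Markers of the neighbouring CA3 field were higher too. Of 9 measured CA3 markers 8 lay above 0, 7 with both T30m arrays above both T0 arrays, against 16.1% of all genes. Their median was 0.44 (0.25 without T30m replicate 1, and 0.87 with the dimmest probe sets left out). Of 9 CA1 markers 8 lay above 0, 6 without overlap, with a median of 0.61. Nnat, neuronatin, read 10.22 and 11.01 at T30m and 8.48 and 7.08 at T0 (2.84 ± 1.17). Chgb, a protein of dense-core vesicles, read 6.62 and 8.4 at T30m and 5.69 and 4.81 at T0. Markers of the dentate granule cell (8, median -0.01, from -0.14 to 0.14 with 1 array left out) lay near 0, and inhibitory neuron markers had a median of 0.16 over 11 (-0.1 without T0 replicate 2), with Reln, the secreted protein of Cajal-Retzius cells and interneurons, lower at 7.09 and 8.21 against 8.96 and 10.33. The AMPA receptor subunit Gria2 read 8.50 and 9.49 at T30m and 8.28 and 7.34 at T0 (1.19 ± 0.81; its other probe set differed by 2.74 ± 0.84), in a list of 21 glutamate receptors whose median was 0.08 (0.04 to 0.15 with 1 array left out). Astrocyte markers had a median of 0.34 over 15 (0.01 without T0 replicate 2 and 0.69 without T0 replicate 1). In 7 of them (46.7%, against 16.1% of all genes) both T30m arrays were above both T0 arrays, and in 0 (against 21.9%) both were below. Aldoc, the brain aldolase, read 9.96 and 9.70 at T30m against 9.07 and 8.0 at T0. As given above, 7 of the excitatory neuron markers were lower in both CA1 arrays than in both CA3 arrays at T0, a count without a background share. Of the 11 inhibitory neuron markers 2 were lower in this way and 1 was higher. The part of the neuron share of the T0 samples in the differences at 30 min was not tested.

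The T30m replicates parted on inflammatory and neuronal genes. Of 20 chemokines and cytokines 16 were higher in T30m replicate 1 than in replicate 2, by a median of 1.34 over the list. Ccl2, the monocyte chemoattractant, read 11.40 and 6.32 at T30m and 10.40 and 10.10 at T0. Il6 read 6.41 and 3.59 at T30m and 3.74 and 3.66 at T0, and Cxcl1, a neutrophil chemokine, read 10.29 and 8.01 against 7.74 and 8.26. For these genes the T30m arrays lay on both sides of T0 or reached into its range, so no direction is given. Without T30m replicate 2 the difference of Ccl2 was 1.15, and without replicate 1 that of Il6 was -0.12. The other way, 10 of 11 excitatory and 11 of 12 oligodendrocyte markers were higher in replicate 2, the array with the low spike-in signal. The median of the excitatory markers was 0.47 without replicate 2 and 1.43 without replicate 1, whereas that of the mitosis genes stayed between -1.55 and -0.9 when any 1 of the 4 arrays was left out. The part of the RNA input in these gaps was not tested.

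**Figure D3:**
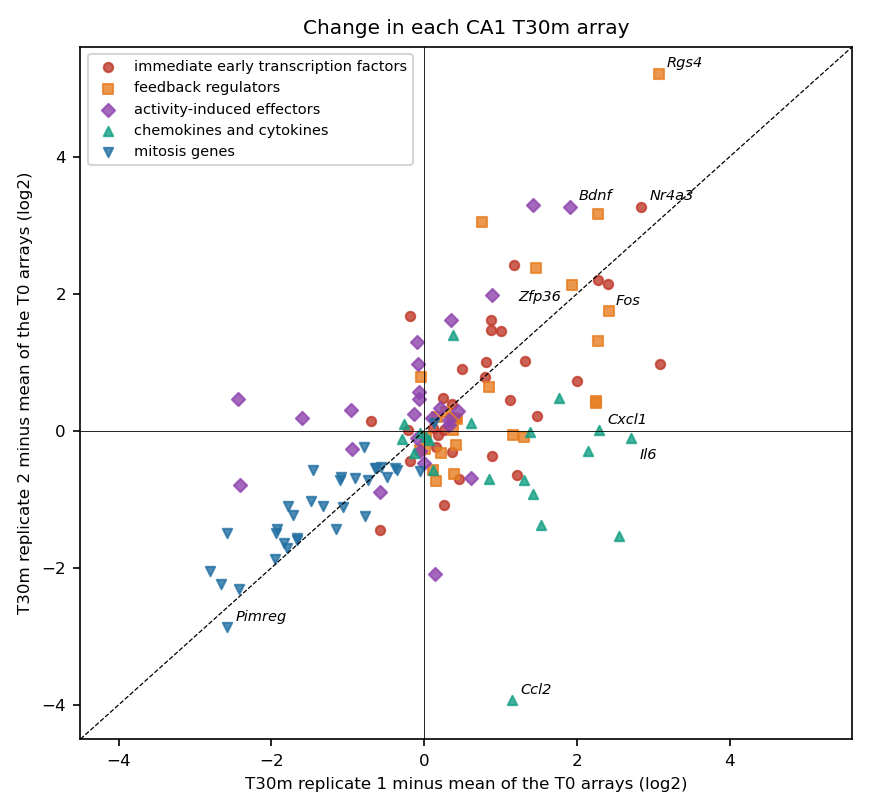
Each T30m array minus the mean of both T0 arrays (log2), replicate 1 on the horizontal axis and replicate 2 on the vertical, for members of 5 lists; the dashed line marks equal change. Mitosis genes lie along the line below 0, Zfp36 and Fos lie close to it above 0, while Ccl2 (11.40 and 6.32 at T30m) and Il6 (6.41 and 3.59) lie far to its right.

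Several of the named genes have a further probe set, which did not always follow. The other probe set of Stmn2 differed by 2.79, near the 3.33 of the one used. It had the same sign but a smaller size for Serpini1 (1.57 against 2.60), Ptprd (1.20 against 1.91), Rgs4 (1.5 against 4.14), Dcx (0.41 against 1.53) and Top2a (-0.38 against -1.74). For Fos (-0.25), Dusp1 (-0.05), Gabrb2 (0.00), Nr4a3 (0.32), Bdnf (0.10), Egr2 (-0.15) and Reln (-0.19) it lay near 0. In each case the probe set used had the higher mean signal. Cd93, a lectin-like receptor of endothelial and myeloid cells with the largest difference downward, read 4.55 and 4.39 at T30m and 7.75 and 8.69 at T0 (-3.75 ± 0.55, limma adjusted p = 0.0646), against -0.12 for its other probe set. Those differences rest on 1 probe set each. Other named genes were Cd9, a tetraspanin (9.26 and 9.95 at T30m, 7.98 and 7.56 at T0), and Septin6, of the septin cytoskeleton (6.49 and 7.09 against 4.28 and 5.15). Lower were Calcb, the beta form of the CGRP peptide (5.05 and 4.78 against 6.51 and 8.42), Htr5b, a serotonin receptor (3.70 and 3.46 against 4.58 and 6.61), Cdca3, a protein of mitotic entry (6.56 and 6.6 against 8.57 and 8.45), and Cdca5l1 (4.19 and 4.68 against 6.78 and 6.50).

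The CA3 field went through the same step with its own arrays. There 0 of 15866 probe sets (0%) passed an adjusted p under 0.05, with 483 at an unadjusted p under 0.05. The test of the difference between the fields, CA1 change minus CA3 change, also gave 0 (0%), with 133 at an unadjusted p under 0.05 (96 genes, 0.922%). The count at an unadjusted p under 0.05 was 455 with CA1 and CA3 arrays of 1 number as a random block and 245 with the replicate number as a fixed block, and 0 passed the adjusted threshold in either, so no gene was shown to respond differently. In CA3, Zfp36 differed by 1.19 and Pimreg by -1.74, both without overlap, and the test of CA1 change minus CA3 change gave limma adjusted p = 1 for both. Mitosis genes had a median of -0.54 in CA3 with 17 of 33 lower in both T30m arrays, where 13.5% of all genes were. Replication genes had -0.51 with 16 of 34, and ribosomal protein genes -0.62 with 20 of 28. Immediate early factors had a median of 0.22 in CA3 with 8 of 32 higher in both T30m arrays, where 12.7% of all genes were, and excitatory neuron markers 0.15 with 0 of 11.

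**Figure D4:**
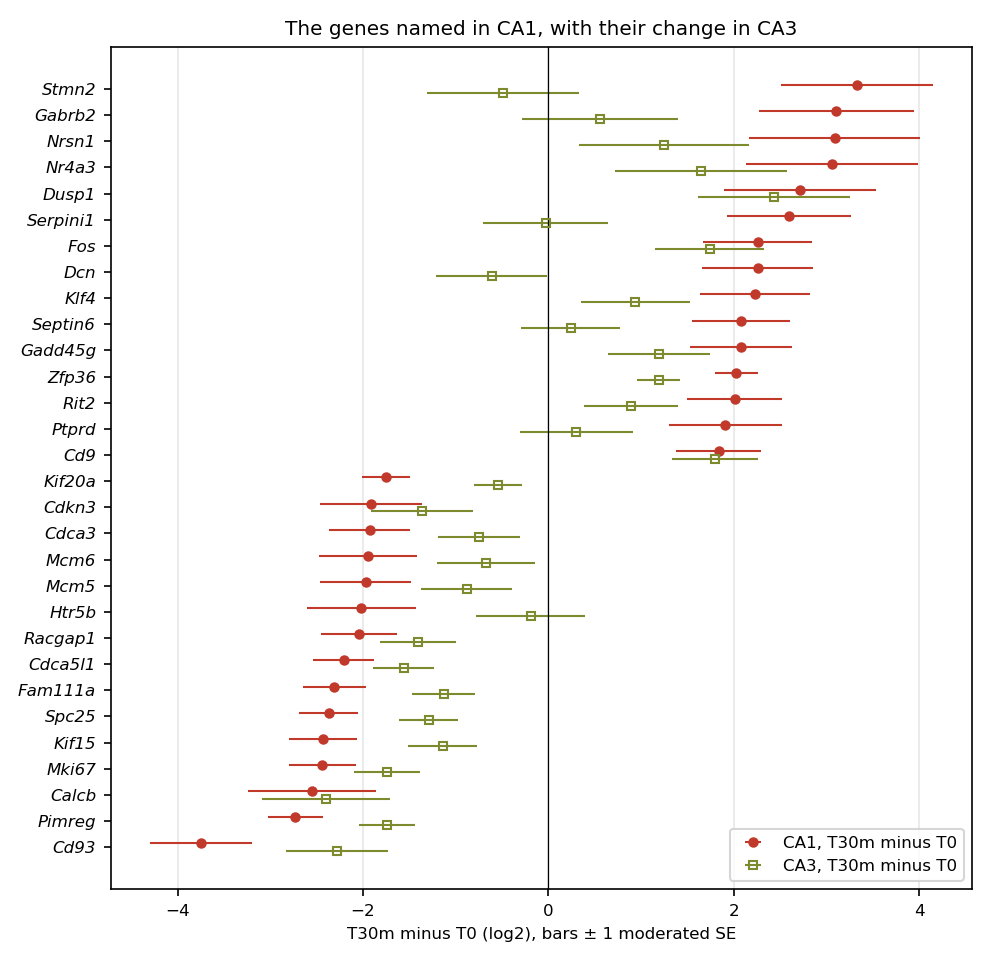
T30m minus T0 (log2) in CA1 (filled red circles) and in CA3 (open green squares) for the 30 genes, with bars of 1 moderated SE on each side. The genes were chosen by their difference in CA1, so that the CA1 points lie further from 0 was set by the choice; Dusp1 (2.72 in CA1, 2.44 in CA3) and Cd9 (1.84 and 1.80) lie nearly level in both fields, and Dcn (2.26 and -0.61) lies on opposite sides.

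The later CA1 times were compared with the same T0 arrays, and each gene's differences from T0 follow in the order 30 min, 3 h, 12 h. Those of Fos were 2.26, 0.26 and 1.26, those of Zfp36 2.03, 1.00 and 0.82, and those of Klf4 2.23, 0.71 and 0.70. These 3 genes lay nearer to T0 at both later times, as did Dusp1 with 2.72, 1.44 and 1.98. Others did not: Nr4a3 gave 3.06, 1.73 and 3.46, Gadd45b 1.79, 2.18 and 3.37, and Gadd45g 2.08, 2.08 and 3.21. Fosb and Egr4, relatives of Fos and Egr1, were highest at 12 h, with 0.91, 1.45 and 3.16 for Fosb and 0.73 (-0.19 without T30m replicate 2), 0.64 and 2.67 for Egr4. The neuronal genes Rgs4 (4.14, 2.13 and 5.0) and Bdnf (2.59, 2.08 and 4.27) were also furthest from T0 at 12 h. The medians of the immediate early list were 0.53, 0.3 and 0.64, so as a list it was not nearer to T0 at 12 h. Pimreg gave -2.73, -2.72 and -2.91, and Mki67 gave -2.44, -2.53 and -3.06. The medians of the mitosis list were -1.21, -1.19 and -1.52, and those of the replication list -0.77, -0.73 and -0.93. Because all 3 differences share the T0 arrays, they are given side by side and not as repeats of each other.

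**Figure D5:**
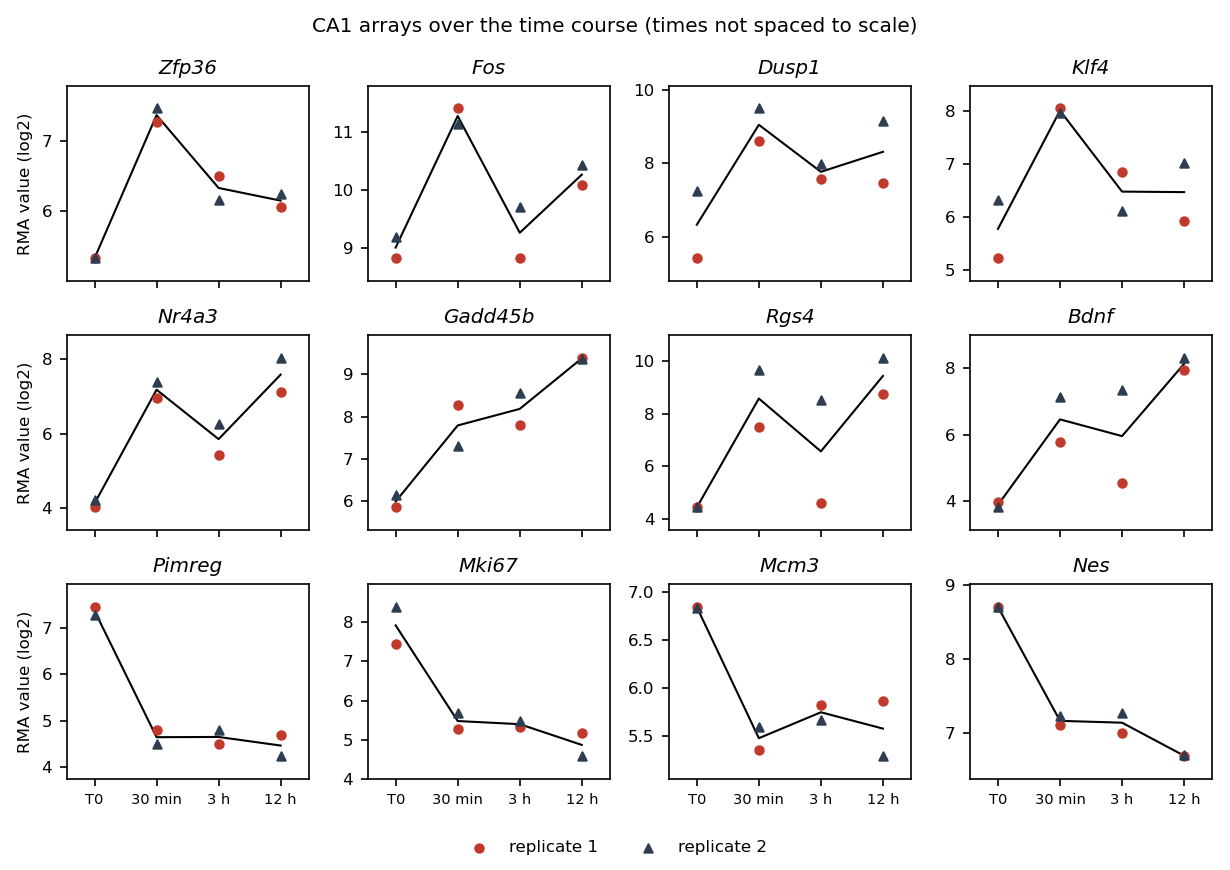
RMA values (log2) of 12 genes on the CA1 arrays at T0, 30 min, 3 h and 12 h, with the replicates as points and a line through their means. Zfp36, Fos, Dusp1 and Klf4 have their highest mean at 30 min, Nr4a3, Gadd45b, Rgs4 and Bdnf at 12 h, and Pimreg, Mki67, Mcm3 and Nes have their highest mean at T0.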

How the data were processed

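Expression in 16 samples was measured on an Affymetrix rat array after biotin labelling in 2 cycles, per the labels' protocols. Per the submitters' processing notes, RMA gave the deposited log2 values; the sources name no settings. RMA gives all arrays 1 distribution of signals, so each difference is relative to the other genes. The number of arrays limits the precision. Of 15923 probe sets, 57 controls were set aside. The platform annotation gave 1 gene for 12783, several for 312 and none for 2771, and 12748 matched RefSeq by Entrez identifier. The probe set with the highest mean stood for each of 10411 genes. Limma 3.58.1 (R 4.3.3) was fitted to 8 group means, with 8 residual degrees of freedom and a prior worth 2.55. Errors after ± are moderated SE. The fit was run on simulated data with planted changes and independent errors. Such data leave out the correlation between same-numbered CA1 and CA3 arrays. Promoter windows came from RefSeq (GRCr8) for 467 of 571 list or named genes; the first window was kept where a symbol had several.

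Genes were named if they passed the adjusted threshold, if they were among the 15 largest differences in either direction with no overlap and an unadjusted p under 0.01 (171 genes), or as members of the immediate early, feedback, effector, mitosis and replication lists; of other lists, the 3 members with the largest difference could be named. The members and the 27 lists, with 559 of 705 genes measured, were chosen with earlier results of these data known.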

Additional observations from a re-analysis of the deposited data

Results flagged for a closer look

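Dcn, the matrix proteoglycan decorin, stood in both the CA1 pyramidal list and the fibroblast list, and its arrays moved apart in opposite directions in the fields. It read 6.09 and 7.20 in CA1 at T30m against 4.47 and 4.31 at T0, a difference of 2.26. In CA3 it read 4.51 and 4.68 at T30m against 4.74 and 5.66 at T0, a difference of -0.61. The test of CA1 change minus CA3 change gave 2.87 with an unadjusted p of 0.00657 and a limma adjusted p of 1, so the difference between the fields did not pass.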

How the results depend on the processing

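The count of 2 probe sets became 0 in fits of the 4 arrays alone (1304 at an unadjusted p under 0.05) or of the 8 CA1 arrays (885). It became 10 with a trended, robust prior and 19 with array weights. The replicate numbers were not taken to pair the samples (deviations of same-numbered CA1 T0 and T30m arrays correlated at 0.25, in CA3 at -0.24), although same-numbered CA1 and CA3 arrays correlated at 0.67 at T30m and 0.57 at T0, and at 0.39 in the random block; with the replicate block the count was 6, and 0 with the replicate block in the 4 arrays. Leaving out 1 CA1 array gave 0 to 1, and leaving out the low spike-in T30m arrays of both fields, a choice made after seeing the data, gave 1. Cyclic loess, the filter on dim probe sets and a random block of CA1 and CA3 pairs kept it at 2. The difference between the fields gave 0 to 1 without 1 array (1 without CA1 T30m replicate 2 and 1 without CA3 T0 replicate 1) and 0 otherwise. CA3 gave 0 to 5 without 1 array (5 without T0 replicate 1), 1 without the low spike-in arrays and 0 otherwise. With 1 CA1 array left out, Egr1 ran from -0.27 to 2.62 and Egr2 from -0.22 to 2.68, both below 0 without T0 replicate 1. Il6 ran from -0.12 (without T30m replicate 1) to 2.71, and Ccl2 from -3.93 to 1.15 (without T30m replicate 2, and likewise without both low spike-in arrays). Egr4 ran from -0.19 (without T30m replicate 2, and likewise without both low spike-in arrays) to 1.66. The cause was not tested. Of 1168 values of 78 genes under other settings, 7 turned, 16, all of Zfp36 or Pimreg, lost the threshold and 28 passed it anew (11 with array weights, 8 with the mean over probe sets, 6 with the trended prior, 3 with the replicate block). Across these settings the mitosis median ran from -1.55 to -0.9 and the immediate early median from 0.32 to 0.71. Under the replicate block Dusp1 had a limma adjusted p of 0.0311. Each group holds 1 array of each number, so that block leaves every difference as it was and could not change a sign. The same holds for the fits of the 4 or the 8 CA1 arrays and for the trended prior. The 7 values that turned came only from settings that left arrays out.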
